A study of Mus musculus with 15 samples.

Results

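The comparison described here is that of liver messenger RNA between mice under intermittent fasting for 16 h (IF16) and mice fed ad libitum (AL), and its members are all genes of the deposited count table. It takes 10 of the 15 libraries of the series, IF16 replicates 1 to 5 and AL replicates 1 to 5, chosen by their feeding group in the labels. All mice were C57BL/6, assigned to a regimen at random, 3 months of age when it began and 6 months when it ended, so that each regimen ran for 3 months. The labels name no other difference between the 2 groups, and no transgene or agent in either. The remaining 5 libraries come from fasting for 24 h every other day (EOD). They entered the filter on low counts, the scaling of libraries and the estimate of the spread, but not the group means compared. The left lateral lobe of the liver was frozen and mRNA was selected on poly-T beads. The sources used here do not give the sex of the mice, the hour of sampling, the time since the last meal or whether each library is a separate mouse, so every p-value speaks of the spread among libraries, part of which may be technical. The table lists 35275 genes, and 13837 passed the filter on low counts and were tested.

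The liver switches between building and burning fat as food comes and goes. In the fed state insulin activates SREBP-1c, which drives the genes of fatty acid synthesis, while SREBP-2 drives those of cholesterol synthesis when sterols are scarce. In the fasted state fatty acids reach the liver from adipose tissue and PPARα drives their oxidation and the making of ketone bodies. The molecular clock, a loop in which ARNTL and CLOCK activate the genes of their own repressors, runs in the liver as well and takes cues from feeding time, so clock transcripts change over the day.

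Values are CPM, that is counts relative to library size after TMM scaling, and libraries held 28129883 to 38147534 counts. A gene is said to rise or fall where the edgeR quasi-likelihood test gave an adjusted p under 0.05. By this rule 484 genes changed, 3.5% of those tested, of which 194 rose (1.4%) and 290 fell (2.1%). All 5 IF16 libraries lay above all 5 AL libraries for 358 genes (2.59%) and below them for 442 (3.19%), 5.78% together. The changes were at least 2-fold for 62 of the genes that rose and 99 of those that fell. Hepatocyte markers were abundant, with the 9 tested summing to 88552 to 108304 CPM in AL and 105248 to 135453 CPM in IF16. The 1 skeletal muscle marker tested read 11.9 CPM in IF16 replicate 5. In the other AL and IF16 libraries it read 0.675 to 1.48 CPM. The part of muscle tissue in that library was not tested.

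AL replicates 4 and 5 stood apart from the other AL libraries. In them 26 acute phase genes summed to 45079 and 62985 CPM, where AL replicates 1 to 3 held 13118 to 15529.9 CPM and IF16 16068 to 18299.5 CPM. Lcn2, a secreted iron-siderophore binder of the acute phase, read 4.44, 4.14, 4.99, 214 and 464 CPM in AL replicates 1 to 5. Without these 2 libraries 368 of 14205 genes passed (2.59%), 122 higher (0.859%) and 246 lower (1.73%) in IF16. Of the 484 genes, 242 passed in both fits (50% of the first set and 65.8% of the second), and none of the 484 changed sign. Values without AL replicates 4 and 5 are given below wherever a call ended. That fit keeps only AL replicates 1 to 3, which can widen the SE. A call that ended therefore does not by itself mean that the fold change became smaller.

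The promoters of Hmgcs1, Cry1 and Bhlhe41 are shown because these genes were among those with the smallest p and hold a short motif of the regulators described above. All are RefSeq sequences of build GRCm38.p6, the 250 bases before the RefSeq start, on the strand of the gene. The deposited counts place the start of Bhlhe41 at position 145865558, inside the stretch printed. Part of that stretch therefore lies within the gene as counted. The first holds TCACNCCAC, a form of the sterol regulatory element, and the others CACGTG, the E-box bound by CLOCK and ARNTL; capitals mark the match on either strand.
Hmgcs1, chr13:119690101-119690350, plus strand: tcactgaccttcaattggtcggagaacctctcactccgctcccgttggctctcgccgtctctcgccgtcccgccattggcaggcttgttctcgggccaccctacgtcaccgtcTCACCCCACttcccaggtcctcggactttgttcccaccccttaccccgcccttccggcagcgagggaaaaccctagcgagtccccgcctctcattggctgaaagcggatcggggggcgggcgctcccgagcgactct
Cry1, chr10:85185055-85185304, minus strand: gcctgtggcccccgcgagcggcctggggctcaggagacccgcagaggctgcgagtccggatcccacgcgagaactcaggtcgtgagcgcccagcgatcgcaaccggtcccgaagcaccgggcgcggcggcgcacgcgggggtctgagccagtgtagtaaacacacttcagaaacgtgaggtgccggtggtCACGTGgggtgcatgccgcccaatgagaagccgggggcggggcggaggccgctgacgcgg
Bhlhe41, chr6:145865421-145865670, minus strand: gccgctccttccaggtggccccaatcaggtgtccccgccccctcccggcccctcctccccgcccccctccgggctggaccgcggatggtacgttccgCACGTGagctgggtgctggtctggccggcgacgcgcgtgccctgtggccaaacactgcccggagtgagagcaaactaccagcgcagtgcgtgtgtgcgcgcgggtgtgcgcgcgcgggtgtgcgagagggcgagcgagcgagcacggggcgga
The matches begin 137 bases (Hmgcs1), 60 bases (Cry1) and 153 bases (Bhlhe41) before the RefSeq start. TCACNCCAC was found in 1.05% of the 32851 promoters and, among the 20 genes of cholesterol synthesis, in Hmgcs1 of the 17 with an entry. CACGTG was found in 6.02% of promoters, and in 7 of the 24 clock genes with an entry out of 29. A match describes the letters only.

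Cholesterol synthesis fell along most of its length. Of 20 genes from acetyl-CoA to cholesterol, all tested, 13 fell and 0 rose in edgeR (0 rose by the DESeq2 Wald test or at an unadjusted p under 0.05), and 17 had a negative log2 fold change (50.1% of all genes did). The median log2 fold change of the 20 was -0.97, against -0.000478 for all genes tested, and the genes that fell did so by 1.70-fold to 4.47-fold. In the steps to mevalonate and its phosphates 4 of 5 fell. Hmgcs1, the synthase that makes HMG-CoA, stood at 319, 395, 339.6, 308 and 283 CPM in AL replicates 1 to 5 and 86.9, 99.4, 112, 113 and 92.8 CPM in IF16 replicates 1 to 5. The groups did not overlap, and Hmgcs1 had the smallest p of all genes that fell (log2 fold change -1.71, SE 0.13, adjusted p = 2.19e-06). Mvd, which decarboxylates the mevalonate product to isopentenyl diphosphate, read 41.5, 48.2, 33.9, 25.6 and 22.8 CPM in AL and 8.32, 6.53, 8.15, 5.58 and 9.91 CPM in IF16. Its log2 fold change was -2.16 (SE 0.22, adjusted p = 9.11e-05), the largest fall of the 20. Acat2, the thiolase of the first step, fell by 0.76 on the log2 scale (adjusted p = 0.00851) and Mvk, mevalonate kinase, by 1.17 (adjusted p = 0.0225). Pmvk, phosphomevalonate kinase, had a log2 fold change of -0.61 and missed the threshold (adjusted p = 0.20), though its groups did not overlap.

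In the steps from isoprenoids to squalene epoxide 3 of 5 genes fell. Fdps, which makes farnesyl diphosphate, read 293, 297, 291, 388 and 372 CPM in AL and 179.9, 125, 104, 61 and 138 CPM in IF16 (log2 fold change -1.43, adjusted p = 0.00331). Sqle, the epoxidase that is another control point of the pathway, read 37.3, 37.1, 47.5, 76.7 and 68.2 CPM in AL and 23.5, 12.4, 17.6, 5.28 and 17.8 CPM in IF16. In both genes IF16 replicate 4 was the lowest library and IF16 replicate 1 the highest of the IF16 group. Sqle fell by 1.80 on the log2 scale (adjusted p = 0.0131) and Fdft1, squalene synthase, by 0.84 (adjusted p = 0.00461). Idi1, the isomerase, had a log2 fold change of -1.16 (adjusted p = 0.34) with overlapping groups, and Ggps1, on the branch to protein prenylation, one of 0.11 (adjusted p = 0.72).

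From lanosterol to cholesterol 6 of 10 genes fell. Lss, which closes the sterol rings, read 46.6, 56.8, 45.7, 64 and 51 CPM in AL and 29.3, 24.3, 23, 16.6 and 28.3 CPM in IF16 (log2 fold change -1.12, SE 0.14, adjusted p = 0.000472). Dhcr7, a late reductase of the pathway, read 103, 99.5, 108, 129.6 and 135 CPM in AL and 61.5, 45.8, 42.9, 30.3 and 53.5 CPM in IF16 (log2 fold change -1.30, SE 0.18, adjusted p = 0.000723). Neither gene's groups overlapped. Msmo1, Nsdhl, Hsd17b7 and Sc5d, which remove methyl groups and place the double bonds, fell by 1.29, 0.99, 0.95 and 0.81 on the log2 scale. Cyp51, the demethylase, did not overlap between groups (116, 101, 139, 180.3 and 157 CPM in AL, 96.5, 74.5, 81.1, 41.3 and 77.9 CPM in IF16) but missed the threshold (adjusted p = 0.0742). Tm7sf2, Lbr and Ebp had log2 fold changes of 0.01, 0.07 and -0.10 and overlapping groups. Per gene length, the deposited FPKM put Hmgcs1 at 102 ± 15.2 in AL and 31 ± 2.57 in IF16 (SD, n = 5 each), and Dhcr7 at 40.9 ± 4.73 and 16.7 ± 4.75.

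Without AL replicates 4 and 5, 9 of the 13 genes passed, and the median of the 20 was -0.95. Mvk, Sqle, Msmo1 and Nsdhl then had adjusted p of 0.0974, 0.0613, 0.11 and 0.0729. In the 10 fits without 1 library each, the call held in all 10 fits for Acat2, Hmgcs1, Mvd, Fdps, Fdft1, Sqle, Lss, Hsd17b7, Sc5d and Dhcr7. The rest passed in fewer (highest adjusted p in brackets): Mvk 7 of 10 (0.0661, without IF16 replicate 3), Msmo1 3 of 10 (0.088, without IF16 replicate 3), Nsdhl 9 of 10 (0.0528, without IF16 replicate 3). Among the 13, IF16 replicate 4 held the lowest IF16 value in 12 and IF16 replicate 1 the highest in 11.

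**Figure D1:**
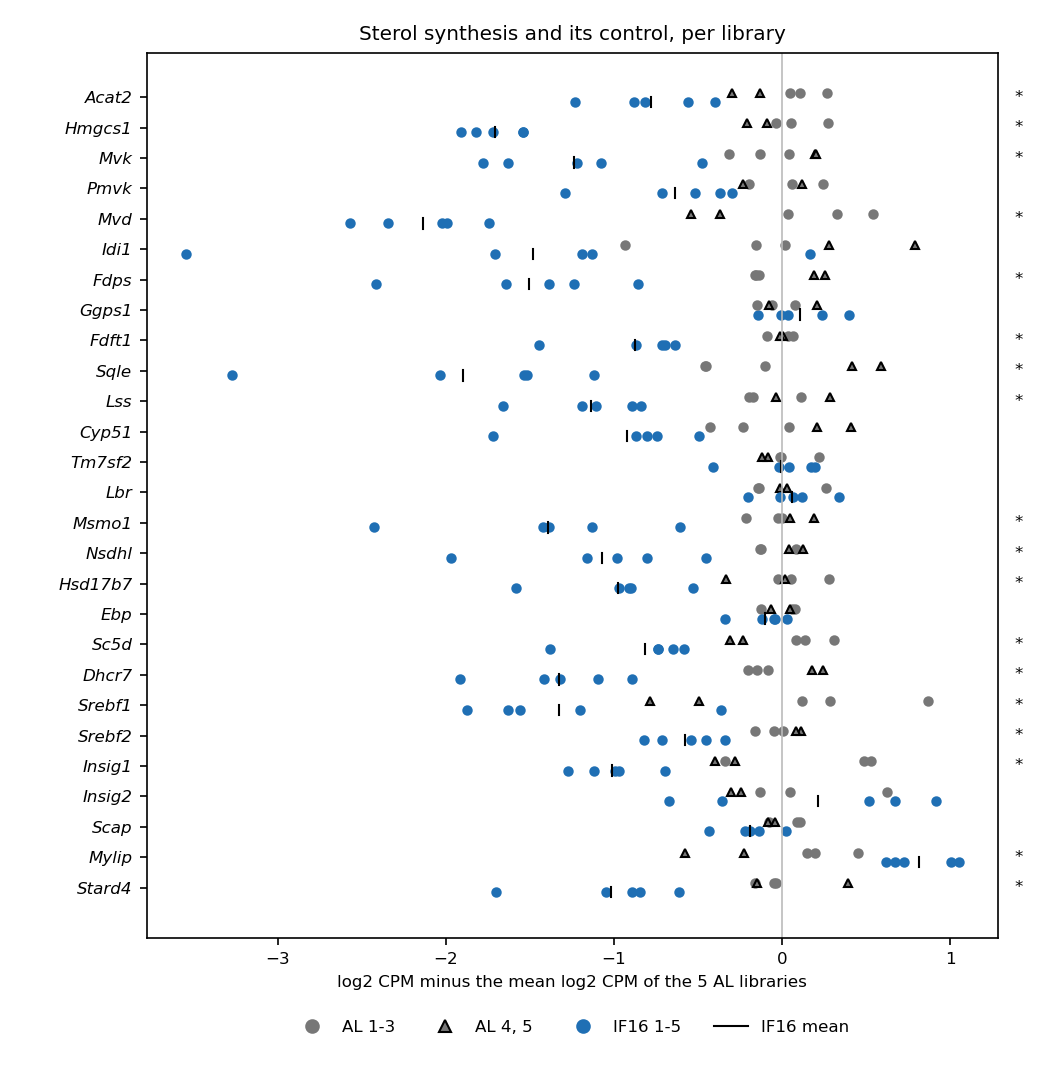
Log2 CPM of each library minus the mean log2 CPM of the 5 AL libraries (horizontal axis) for 27 genes of sterol synthesis and its control; grey circles are AL replicates 1 to 3, black-edged triangles AL replicates 4 and 5, blue circles the 5 IF16 libraries, short bars the IF16 mean, and asterisks mark an adjusted p under 0.05. The 5 IF16 libraries of Hmgcs1 and Mvd lie left of all AL libraries, while those of Tm7sf2 and Lbr overlap them.

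Among 12 genes of SREBP control, 4 fell and 1 rose. Both SREBP genes fell. Srebf1 read 532, 354, 316, 169 and 207 CPM in AL and 226, 126, 94.1, 79.5 and 98.9 CPM in IF16 (log2 fold change -1.34, adjusted p = 0.0441), with IF16 replicate 1 above 2 AL libraries. Srebf2 read 36.8, 35.5, 32.8, 39.6 and 38.9 CPM in AL and 29, 25.2, 20.7, 26.8 and 22.4 CPM in IF16 (log2 fold change -0.57, adjusted p = 0.0139), without overlap. Insig1, which holds SREBP in the endoplasmic reticulum, fell by 1.06 on the log2 scale (adjusted p = 0.0251) and Stard4, a sterol carrier, by 0.99 (adjusted p = 0.0081). Mylip, a ubiquitin ligase induced by sterols, rose by 0.78 (adjusted p = 0.018). Insig2 and Scap had log2 fold changes of 0.30 and -0.19, and Mbtps1, Mbtps2, Tmem97, Rnf145 and Npc1 lay between -0.10 and 0.12. Without AL replicates 4 and 5, Srebf2 (adjusted p = 0.0743) and Mylip (adjusted p = 0.0871) no longer passed. When libraries were left out singly, the call held in all 10 fits for Srebf2 and Stard4. Passing in part of the fits, with the highest adjusted p, were Srebf1 3 of 10 (0.12, without IF16 replicate 3), Insig1 4 of 10 (0.0697, without IF16 replicate 3), Mylip 9 of 10 (0.0558, without IF16 replicate 2).

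More genes of fatty acid synthesis passed without AL replicates 4 and 5 than with them. With all libraries Pnpla3, a lipid droplet protein under SREBP-1c, was the 1 of 15 genes of lipogenesis that fell in edgeR, from 7.1, 22.6, 1.7, 2.35 and 2.06 CPM in AL to 0.841, 0.550, 0.789, 0.614 and 1.19 CPM in IF16 (log2 fold change -3.16, SE 0.70, adjusted p = 0.0242). AL replicate 2 was its highest library. The DESeq2 Wald test called 5 of the 15 lower, and 7 were lower at an unadjusted p under 0.05. Fasn, fatty acid synthase, read 1613, 1503, 948, 384 and 409 CPM in AL and 532, 333, 184, 119 and 387 CPM in IF16, with AL replicates 4 and 5 the lowest of the AL group. Its log2 fold change was -1.64 (adjusted p = 0.0599) with them and -2.12 (adjusted p = 0.00786) without. Acly, which supplies acetyl-CoA, went from -0.94 (adjusted p = 0.0618) to -1.19 (adjusted p = 0.0302), and Acacb, an acetyl-CoA carboxylase, from -1.15 (adjusted p = 0.062) to -1.45 (adjusted p = 0.0221). Without AL replicates 4 and 5, 5 of the 15 genes fell and the median moved from -0.40 to -0.76.

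Few genes of fat elongation and storage fell. Beside the 2.1% of all genes tested that fell, counts this small are not read as results about the lists. Elovl1, an elongase of very long chains, read 32, 32.9, 31.7, 34.9 and 36 CPM in AL and 22.9, 22.7, 22.6, 21 and 21.2 CPM in IF16, without overlap (log2 fold change -0.60, SE 0.08, adjusted p = 0.00057), 1 of 2 among 16 elongases and desaturases beside Fads3 (-1.40, adjusted p = 0.0349). Lpin3, a phosphatidate phosphatase, was the 1 of 12 genes of triglyceride synthesis that fell (-0.85, adjusted p = 0.0325). Among 14 genes of lipid droplets and lipolysis, Cidec, which enlarges droplets, fell by 1.60 on the log2 scale (adjusted p = 0.0116) and Lipe, hormone-sensitive lipase, by 0.61 (adjusted p = 0.0478). Plin5, which coats droplets next to mitochondria, rose by 1.0 (adjusted p = 0.0139, and 0.0535 without AL replicates 4 and 5). Gm6484, which is Angptl8 by its identifier, an insulin-induced regulator of lipoprotein lipase, read 359, 135, 80.4, 120.4 and 72.4 CPM in AL and 36.3, 52.8, 32.5, 41.5 and 34 CPM in IF16 (log2 fold change -1.96, adjusted p = 0.0173). Leaving out 1 library at a time, the call held in all 10 fits for Elovl1, Cidec and Plin5. The others kept it in fewer (fits passed, then the highest adjusted p): Pnpla3 6 of 10 (0.07, without IF16 replicate 2), Fads3 2 of 10 (0.0788, without IF16 replicate 4), Lpin3 3 of 10 (0.0758, without IF16 replicate 2), Lipe 4 of 10 (0.12, without IF16 replicate 5), Gm6484 8 of 10 (0.0528, without IF16 replicate 3). Adipocyte transcripts differed between libraries: Cfd, adipsin, read 8.64, 7.49, 7.31, 0.795 and 0.979 CPM in AL and 0.451, 0.336, 0.230, 0.480 and 0.945 CPM in IF16 (adjusted p = 0.0113). Too low to test, Adipoq, Retn, Plin1 and Lep were at 0 counts in 3, 2, 6 and 8 of the 10 libraries. Their highest counts were 72, 27, 25 and 24. The part of adipocytes in these falls was not tested, and in bulk samples fewer cells of a type and less RNA per cell cannot be told apart.

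Part of the genes of fatty acid use rose. Of 20 genes of mitochondrial beta-oxidation all had a positive log2 fold change (49.9% of all genes did), with a median of 0.27, but 3 rose past the threshold. Slc22a5, the carnitine carrier, read 15.7, 19.1, 15.3, 15.2 and 12.8 CPM in AL and 20.3, 28.8, 26.3, 22.2 and 25.9 CPM in IF16 (log2 fold change 0.66, adjusted p = 0.0169), without overlap. Acadl, long-chain acyl-CoA dehydrogenase, rose by 0.43 (adjusted p = 0.0368) and Eci2, an enoyl-CoA isomerase, by 0.45 (adjusted p = 0.032). Of 14 peroxisomal genes Decr2 rose (0.44, adjusted p = 0.0408), and of 17 genes of fatty acid uptake and activation Slc27a2 and Slc27a5 rose (0.59 and 0.35, adjusted p = 0.0101 and 0.0457).

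The acyl-CoA thioesterases, which release free fatty acids, rose in 3 of 10 and were positive in all 10. Acot1, a cytosolic member, read 16.1, 7.98, 14.8, 7.78 and 5.6 CPM in AL and 22.7, 51.2, 50.2, 38.4 and 31.9 CPM in IF16, and no IF16 library was as low as any AL library (log2 fold change 1.89, SE 0.32, adjusted p = 0.00561). Acot4 and Acot12 rose by 1.04 and 0.66 (adjusted p = 0.0139 and 0.00166). Among 6 omega-hydroxylases Cyp4a31 rose (1.56, adjusted p = 0.00728) and Cyp4a12a fell (-0.70, adjusted p = 0.0213); these are close copies whose counts are uncertain. Cyp4a14 read 245, 159, 136, 9.44 and 2.3 CPM in AL and 143, 476, 548, 731 and 306 CPM in IF16 (adjusted p = 0.25), with AL replicates 4 and 5 the lowest. Slc16a7, a carrier of pyruvate and ketone bodies, rose by 0.77 (adjusted p = 0.00538), the 1 of 9 genes of ketone bodies that passed. Ppara, the receptor that drives these genes, read 28.5, 30.7, 24.2, 18.4 and 23.1 CPM in AL and 34.3, 37.6, 34.2, 34.1 and 35.7 CPM in IF16 (log2 fold change 0.49, adjusted p = 0.0222), with AL replicate 4 the lowest library. Angptl4, a PPARα target that inhibits lipoprotein lipase, rose by 1.09 (adjusted p = 0.0253).

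Without AL replicates 4 and 5, adjusted p was 0.0956 for Slc22a5, 0.16 for Acadl, 0.21 for Decr2, 0.0579 for Slc27a2, 0.11 for Slc27a5, 0.13 for Cyp4a12a and 0.11 for Ppara, while Eci2, Acot1, Acot4, Acot12, Cyp4a31, Slc16a7 and Angptl4 passed. With each library left out in turn, the call held in all 10 fits for Slc27a2, Acot1, Acot4, Acot12, Cyp4a31 and Slc16a7. Fewer fits kept the others, given with the highest adjusted p: Slc22a5 8 of 10 (0.0574, without IF16 replicate 2), Acadl 3 of 10 (0.12, without IF16 replicate 3), Eci2 2 of 10 (0.12, without IF16 replicate 3), Decr2 4 of 10 (0.12, without IF16 replicate 2), Slc27a5 0 of 10 (0.13, without IF16 replicate 3), Cyp4a12a 8 of 10 (0.0654, without IF16 replicate 5), Ppara 5 of 10 (0.0691, without IF16 replicate 2), Angptl4 5 of 10 (0.0739, without IF16 replicate 3). Of 15 genes of gluconeogenesis and 15 of glycogen 0 passed in edgeR. At an unadjusted p under 0.05 there were 2 higher and 1 lower in the first list and 1 of each in the second, and the DESeq2 Wald test called 1 and 0. The smallest p values belonged to G6pc (log2 fold change 0.94, adjusted p = 0.15) and Ugp2 (0.38, adjusted p = 0.20). Of 14 genes of pyruvate entry and Txnip, Txnip, a glucose-induced inhibitor of thioredoxin and glucose uptake, read 53.8, 48.9, 33.1, 21.5 and 23 CPM in AL and 212, 83.8, 92.2, 69.5 and 105 CPM in IF16 and rose by 1.64 (adjusted p = 0.0147; 0.0612 without AL replicates 4 and 5). IF16 replicate 1 was its highest library. Mpc2, a subunit of the mitochondrial pyruvate carrier, rose by 0.55 (adjusted p = 0.0457; 0.17 without the 2 libraries). In the 10 fits without 1 library each, the call held in all 10 fits for Txnip. The rest passed in fewer (highest adjusted p in brackets): Mpc2 1 of 10 (0.15, without IF16 replicate 3).

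**Figure D2:**
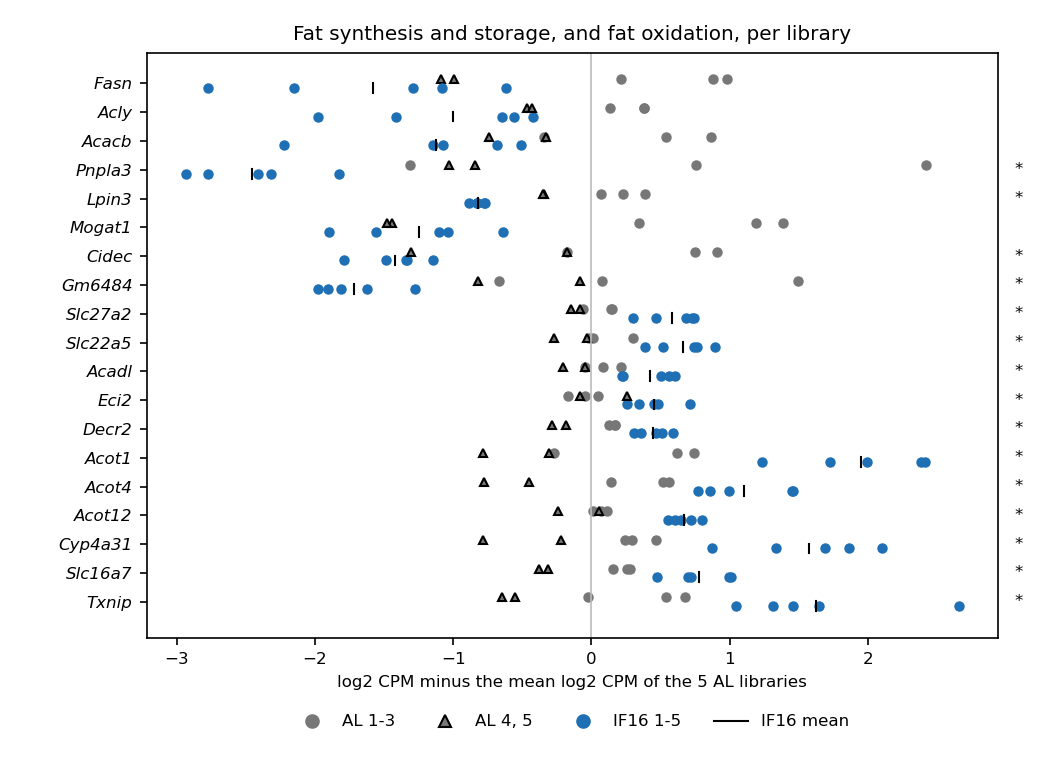
Log2 CPM of each library minus the mean log2 CPM of the 5 AL libraries (horizontal axis) for genes of fat synthesis, storage and oxidation, marked as in the plot of sterol genes. In Fasn and Mogat1 the triangles of AL replicates 4 and 5 lie at or near the IF16 libraries, and in Acot1 all IF16 libraries lie to the right of all AL libraries.

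The clock genes that passed changed in opposite directions. Of 4 activators Arntl rose, of 13 repressors Cry1 rose and Bhlhe41 fell, and of 12 outputs Lonrf3 rose, beside 3.5% of all genes tested that changed. The repressors leaned lower: 3 of 13 were positive, with a median of -0.39. At an unadjusted p under 0.05, 7 of them were lower and 1 higher. Cry1, a core repressor of CLOCK and ARNTL, read 5.64, 5.28, 6.3, 6.46 and 7.8 CPM in AL and 17.9, 15.2, 18.3, 17.6 and 16.1 CPM in IF16, without overlap (log2 fold change 1.44, SE 0.18, adjusted p = 0.000504). Bhlhe41, a repressor that competes for the E-box, read 8.73, 7.77, 7.25, 4.8 and 4.96 CPM in AL and 2.37, 1.47, 0.460, 0.667 and 0.972 CPM in IF16, again without overlap (log2 fold change -2.50, SE 0.32, adjusted p = 0.00051). The promoters of both, printed above, hold the E-box, so genes with that match moved in both directions. Arntl read 1.12, 1.07, 1.04, 0.415 and 0.743 CPM in AL and 1.74, 5.01, 3.75, 9.74 and 2.3 CPM in IF16 (log2 fold change 2.35, SE 0.47, adjusted p = 0.0127). IF16 replicate 4 was the highest and IF16 replicate 1 the lowest of the IF16 group. Lonrf3 rose by 1.99 (adjusted p = 0.00129).

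Dbp, an output of the E-box, read 90.2, 100.3, 85.4, 76.3 and 81.5 CPM in AL and 63.1, 30.2, 21.2, 7.04 and 36.1 CPM in IF16. The groups did not overlap, but IF16 replicate 4 was far below the rest and the adjusted p was 0.12. Nr1d1, the repressor of Arntl, had a log2 fold change of -1.22 (adjusted p = 0.0547), Clock one of 0.56 (adjusted p = 0.0737) and Nfil3, which opposes Dbp, one of 0.81 (adjusted p = 0.12). Per1, Per2 and Per3 had log2 fold changes of -0.22, -0.20 and -0.76 (adjusted p = 0.73, 0.73 and 0.26) with overlapping groups. The activators Npas2 and Rora had log2 fold changes of 0.43 and -0.24. The other repressors and their regulators, Cry2, Nr1d2, Ciart, Bhlhe40, Csnk1d, Csnk1e and Fbxl21, lay between -1.40 and 0.06, and the other outputs, Tef, Hlf, Usp2, Tspan4, Gys2, Por, Nampt, Wee1 and Ccrn4l, between -0.34 and 0.58, none past the threshold. Without AL replicates 4 and 5 the log2 fold change was 1.58 for Cry1 and -2.73 for Bhlhe41, while Arntl (adjusted p = 0.0692) no longer passed. When libraries were left out singly, all 4 passed in all 10 fits. Regimen and hour of sampling relative to meals cannot be told apart here.

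**Figure D3:**
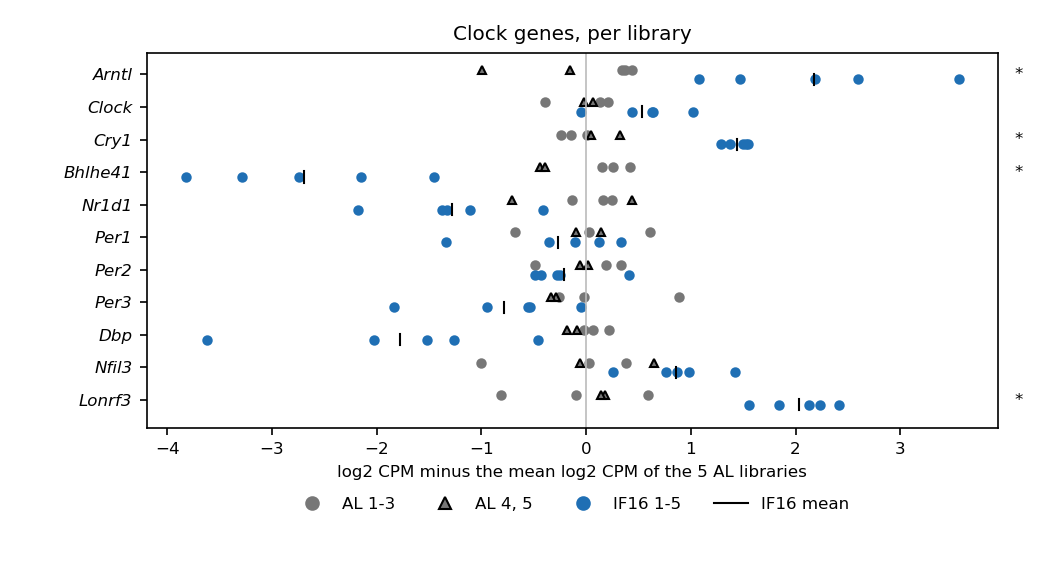
Log2 CPM of each library minus the mean log2 CPM of the 5 AL libraries (horizontal axis) for 11 clock genes, marked as in the plot of sterol genes. The IF16 libraries of Cry1 lie right and those of Bhlhe41 left of all AL libraries, and those of Dbp and Arntl spread widely.

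Among hormones and signals, Igfbp2, a binding protein of the insulin-like growth factors, was the clearest. It read 229, 336, 383, 392 and 342 CPM in AL and 639, 700.5, 905, 631 and 723 CPM in IF16, without overlap (log2 fold change 1.10, SE 0.15, adjusted p = 0.000793), 1 of 3 genes past the threshold among 19 of insulin, IGF and growth hormone signalling. Stat5b, which carries the growth hormone signal, rose by 0.48 (adjusted p = 0.0312), and Pik3r1, the regulatory subunit of PI3-kinase, fell by 0.69 on the log2 scale (adjusted p = 0.0306). Among 18 hepatokines Fgf1, Angptl4 and Rbp4 rose and Gm6484 fell; Fgf1, a fibroblast growth factor, read 50.8, 45.5, 53.9, 47.6 and 50.3 CPM in AL and 70, 67.2, 65.5, 67.7 and 71.1 CPM in IF16 (log2 fold change 0.46, adjusted p = 0.00683). Among 19 genes of AMPK and mTORC1 signalling Sesn2, a leucine sensor that restrains mTORC1, read 6.55, 6.8, 6.76, 4.35 and 7.63 CPM in AL and 13, 11.9, 10.7, 13.2 and 12.4 CPM in IF16 and rose (log2 fold change 0.93, SE 0.14, adjusted p = 0.00164), and Rptor, the scaffold of mTORC1, fell by 0.35 (adjusted p = 0.0308). Stat5b, Pik3r1, Rbp4 and Rptor no longer passed without AL replicates 4 and 5 (adjusted p = 0.15, 0.11, 0.0924 and 0.0554). The log2 fold change of Rbp4 was 0.43 (SE 0.11) with them and 0.46 (SE 0.14) without. For Rptor it was -0.39 without them, and for Stat5b 0.41. Leaving out 1 library at a time, the call held in all 10 fits for Igfbp2, Fgf1 and Sesn2. The others kept it in fewer (fits passed, then the highest adjusted p): Stat5b 3 of 10 (0.0953, without IF16 replicate 2), Pik3r1 4 of 10 (0.0807, without IF16 replicate 3), Rbp4 1 of 10 (0.13, without IF16 replicate 3), Rptor 4 of 10 (0.0897, without IF16 replicate 2).

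Of 13 Cyp2c genes, whose products oxidise drugs and fatty acids, Cyp2c37, Cyp2c50 and Cyp2c54 rose. Cyp2c54 read 257, 272, 320.4, 236 and 189.9 CPM in AL and 454, 545, 565, 603 and 465 CPM in IF16 (log2 fold change 1.05, SE 0.13, adjusted p = 0.000472) and Cyp2c37 read 255, 257, 437, 288 and 269 CPM in AL and 557, 599.6, 701, 694 and 589 CPM in IF16 (log2 fold change 1.06, SE 0.15, adjusted p = 0.0008). Both rose without overlap, and counts of these close copies are uncertain. Of 13 targets of CAR and PXR, Cyp3a11 (0.67, adjusted p = 0.0209) and Abcb1a, an efflux pump (1.51, adjusted p = 0.0151), rose. Nr1i3, which is CAR, rose by 0.83 (adjusted p = 0.0255). Among 30 conjugating enzymes Gsta4, Gstt2, Sult1d1 and Nat8 rose and Gstm4 fell; Nat8, an acetyltransferase, read 40.9, 31.6, 42.5, 44.4 and 43.4 CPM in AL and 81.5, 84.1, 74.8, 60 and 72.4 CPM in IF16 (log2 fold change 0.88, adjusted p = 0.00331). Cyp17a1, a steroid hydroxylase, was the 1 of 21 other P450 genes to fall, at 21.5, 17.8, 11.8, 5.01 and 8.88 CPM in AL and 2.16, 4.64, 3.19, 3.71 and 3.83 CPM in IF16 (log2 fold change -1.89, adjusted p = 0.00343).

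In bile acid synthesis 3 of 16 genes rose, led by Cyp39a1, an oxysterol hydroxylase, at 6.75, 2.94, 3.85, 6.26 and 8.04 CPM in AL and 14.1, 18.3, 17.1, 13.9 and 14 CPM in IF16 (log2 fold change 1.47, SE 0.22, adjusted p = 0.00134). Akr1d1, which reduces the sterol ring, rose by 0.57 (adjusted p = 0.0406). Of 15 transporters of bile acids and organic anions Slco1a4, an uptake carrier, rose by 1.05 (adjusted p = 0.00367) beside Abcb1a, while Abcb11, the bile salt export pump, fell by 0.41 on the log2 scale (adjusted p = 0.0327) and Atp8b1, a flippase of the canalicular membrane, by 0.44 (adjusted p = 0.0481). Without AL replicates 4 and 5, Abcb1a (adjusted p = 0.079), Cyp2c50 (0.0887), Cyp3a11 (0.0644), Nr1i3 (0.11), Gsta4 (0.0644), Gstt2 (0.16), Sult1d1 (0.0512), Akr1d1 (0.17), Abcb11 (0.10) and Atp8b1 (0.18) no longer passed. With each library left out in turn, the call held in all 10 fits for Cyp2c37, Cyp2c54, Abcb1a, Gsta4, Sult1d1, Nat8, Gstm4, Cyp17a1, Cyp39a1 and Slco1a4. Fewer fits kept the others, given with the highest adjusted p: Cyp2c50 8 of 10 (0.0607, without IF16 replicate 2), Cyp3a11 7 of 10 (0.0734, without IF16 replicate 3), Nr1i3 5 of 10 (0.0754, without IF16 replicate 2), Gstt2 4 of 10 (0.12, without IF16 replicate 3), Akr1d1 2 of 10 (0.11, without IF16 replicate 3), Abcb11 3 of 10 (0.0931, without IF16 replicate 5), Atp8b1 1 of 10 (0.12, without IF16 replicate 5).

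Among the genes with the smallest p, the increases were Pcp4l1, Dsg1c, Cyp2c54, Caln1, Cry1, Igfbp2, Cyp2c37, Maf, Ppp1r1b and Tomm40l, and the decreases Hmgcs1, Mvd, Krt8, Lss, Arhgap26, Parp3, Tuba1c, Bhlhe41, Elovl1 and Dhcr7. None of the 20 had overlapping groups. Pcp4l1, a small protein related to PCP4, read 2.81, 3.38, 4.44, 4.46 and 4.76 CPM in AL and 9.85, 15.8, 16.2, 24.5 and 12.7 CPM in IF16 (log2 fold change 2.00, SE 0.21, adjusted p = 0.000119). Dsg1c, a desmosomal cadherin, read 4.78, 5.46, 4.18, 4.18 and 2.84 CPM in AL and 20.7, 13.7, 13.4, 11.4 and 17.3 CPM in IF16 (log2 fold change 1.83, SE 0.21, adjusted p = 0.000184). Krt8, a keratin of hepatocytes, read 307, 275, 294, 399 and 341 CPM in AL and 189, 183, 178, 172 and 172 CPM in IF16 (log2 fold change -0.85, SE 0.10, adjusted p = 0.000429), with AL replicate 4 the highest. Caln1, Maf, Ppp1r1b and Tomm40l rose by 1.82, 0.73, 1.06 and 1.37 on the log2 scale, and Arhgap26, Parp3 and Tuba1c fell by 1.18, 0.91 and 1.08. All 20 passed without AL replicates 4 and 5.

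Of 16 sinusoidal endothelial markers 7 rose (11 by the DESeq2 Wald test, and 16 at an unadjusted p under 0.05), all 16 were positive, and the median was 0.68 (0.41 without AL replicates 4 and 5, with 5 passing). Their summed level was 177.7 to 307.3 CPM in AL and 365.4 to 437.6 CPM in IF16. None of the 16 was at 0 in any library. The 11 Kupffer cell and macrophage markers were likewise all positive, with a median of 0.28 (0.50 without AL replicates 4 and 5). Of these 11, 0 passed in edgeR or at an unadjusted p under 0.05. In bulk samples more cells of a type and more RNA per cell cannot be told apart. Clec4g, an endothelial lectin, read 32.8, 32.5, 28, 20.8 and 20.2 CPM in AL and 45.6, 49.3, 53.3, 47.8 and 48.7 CPM in IF16 (log2 fold change 0.87, SE 0.13, adjusted p = 0.00164); AL replicates 4 and 5 were the lowest. Lyve1, Mrc1, Fcgr2b and Oit3 rose by 1.16, 0.88, 0.93 and 0.78, and Bmp2 and Pecam1, which rose by 0.78 and 0.56, no longer passed without those libraries (adjusted p = 0.0735 and 0.13). In the 10 fits without 1 library each, the call held in all 10 fits for Clec4g, Lyve1, Mrc1 and Oit3. The rest passed in fewer (highest adjusted p in brackets): Fcgr2b 8 of 10 (0.0607, without IF16 replicate 2), Bmp2 8 of 10 (0.0676, without IF16 replicate 3), Pecam1 2 of 10 (0.10, without AL replicate 5). All 49 cytosolic ribosomal protein genes were positive (median 0.27) and 3, Rps27, Rps28 and Rps29, rose by 0.53, 0.57 and 0.53 (adjusted p = 0.0384, 0.0213 and 0.0312). Of 44 nuclear genes of the respiratory chain 43 were positive and 0 passed in edgeR, with 18 higher at an unadjusted p under 0.05 and 1 called by the DESeq2 Wald test. The mitochondrially encoded genes leaned the other way: 1 of 12 was positive and 0 passed, with a median of -0.11 (-0.22 without AL replicates 4 and 5). When libraries were left out singly, calls held in part of the 10 fits, given with the highest adjusted p: Rps27 1 of 10 (0.13, without IF16 replicate 3), Rps28 5 of 10 (0.0746, without IF16 replicate 3), Rps29 3 of 10 (0.10, without IF16 replicate 3).

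Of 31 proteasome genes 4, Psmc2, Psmc4, Psmc5 and Psmd14, fell by 0.36 to 0.52 on the log2 scale, while 2.1% of all genes tested fell. Immediate early genes Fos, Atf3 and Btg2 fell by 1.43, 1.20 and 1.68 (3 of 22), and interferon-stimulated Isg15 and Oasl1 by 0.78 and 1.04 (2 of 33). The groups overlapped in Fos, Atf3 and Btg2. Of the 22 genes 4 were positive, and at an unadjusted p under 0.05 there were 10 lower and 1 higher. Of the 33 genes 4 were positive, with 13 lower and 0 higher at that p. The medians were -0.55 and -0.36, and -0.38 and -0.18 without AL replicates 4 and 5. Atf3 and Oasl1 passed without AL replicates 4 and 5. The other 7 did not, with adjusted p of 0.21 for Psmc2, 0.10 for Psmc4, 0.14 for Psmc5, 0.13 for Psmd14, 0.058 for Fos, 0.14 for Btg2 and 0.0737 for Isg15. In one-carbon metabolism Cbs, which commits homocysteine to cysteine, fell by 0.85 (adjusted p = 0.00467) and Nnmt, which methylates nicotinamide, by 1.12 (adjusted p = 0.0147, and 0.0613 without those libraries). Ahcy rose by 0.50 (adjusted p = 0.0349; 0.13 without them). Pgd, an NADPH source of the pentose phosphate pathway, fell by 0.81 (adjusted p = 0.000968). Leaving out 1 library at a time, the call held in all 10 fits for Isg15, Oasl1, Cbs and Pgd. The others kept it in fewer (fits passed, then the highest adjusted p): Psmc2 2 of 10 (0.11, without IF16 replicate 5), Psmc4 7 of 10 (0.0566, without IF16 replicate 2), Psmc5 2 of 10 (0.11, without IF16 replicate 2), Psmd14 4 of 10 (0.0653, without AL replicate 1), Fos 4 of 10 (0.0739, without IF16 replicate 3), Atf3 3 of 10 (0.0857, without IF16 replicate 5), Btg2 2 of 10 (0.11, without IF16 replicate 3), Nnmt 9 of 10 (0.0505, without IF16 replicate 3), Ahcy 1 of 10 (0.11, without IF16 replicate 2).

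Of 18 major urinary protein genes tested 2 fell and 1 had a positive log2 fold change. The median of the 18 was -1.71, and -0.94 without AL replicates 4 and 5, when 0 passed. All IF16 libraries lay below all AL libraries for 9 of the 18 (3.19% of all genes tested did). At an unadjusted p under 0.05, 13 were lower, and the DESeq2 Wald test called 11 lower. The summed level differed less: 15739 to 20299.5 CPM in AL replicates 1 to 3 and 14531 to 19103 CPM in IF16. AL replicates 4 and 5 held 27126 and 28294 CPM. Mup17, a major urinary protein, had the largest fall named here, at 59.1, 155, 25.4, 162 and 261 CPM in AL and 3.03, 1.74, 0.756, 1.09 and 0.486 CPM in IF16 (log2 fold change -6.54, adjusted p = 0.0403), and Mup18 fell by 1.75; counts of such near-identical copies are uncertain. Neither passed without AL replicates 4 and 5 (adjusted p = 0.10 and 0.25). Few genes, often 1, passed in several further lists, beside 3.5% of all genes tested. A single call in a list of this size is not read as a result about the list. Calr, a chaperone of the endoplasmic reticulum (1 of 25), fell by 0.73 on the log2 scale. Cebpa, a transcription factor of hepatocytes (1 of 15), fell by 0.52, and Tap1, the peptide transporter of antigen presentation (1 of 21), by 0.75. Mcm2, a replication helicase subunit (1 of 21), fell by 1.02, and Gadd45a, a growth arrest gene (1 of 17), by 1.86. Nmnat3, a mitochondrial NAD synthase (1 of 2 that fell among 15), fell by 0.54. Oat and Agxt, aminotransferases, fell by 0.53 and 0.48, 2 of 34 genes of amino acid breakdown. Sgk1, a glucocorticoid-induced kinase, rose by 0.79 (the 1 that rose of 15). Slc3a2, an amino acid transporter subunit, rose by 0.33 (1 of 2 that rose among 18), and Bnip3, a mitophagy receptor, by 0.51 (1 of 27). Of these, Calr, Oat, Agxt, Sgk1, Slc3a2 and Bnip3 no longer passed without AL replicates 4 and 5 (adjusted p = 0.0597, 0.0521, 0.0988, 0.16, 0.10 and 0.14). With each library left out in turn, the call held in all 10 fits for Calr, Mcm2 and Gadd45a. Fewer fits kept the others, given with the highest adjusted p: Mup17 1 of 10 (0.12, without IF16 replicate 3), Mup18 3 of 10 (0.0958, without IF16 replicate 3), Cebpa 6 of 10 (0.0773, without IF16 replicate 3), Tap1 5 of 10 (0.0716, without IF16 replicate 5), Nmnat3 3 of 10 (0.10, without IF16 replicate 5), Oat 6 of 10 (0.0739, without IF16 replicate 3), Agxt 3 of 10 (0.11, without IF16 replicate 5), Sgk1 2 of 10 (0.12, without IF16 replicate 3), Slc3a2 3 of 10 (0.0874, without IF16 replicate 2), Bnip3 3 of 10 (0.12, without IF16 replicate 3).

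The genes whose fold changes moved most without AL replicates 4 and 5 were Lcn2, S100a8, Hcar2, Tff3, Crybb3 and Bcl3, all of which fell with them. Lcn2 had a log2 fold change of -5.49 (adjusted p = 0.0459) with them and -0.55 (adjusted p = 0.47) without. S100a8, a neutrophil protein, went from -3.22 to -0.54 (adjusted p = 0.51), and Bcl3, an NF-κB cofactor, from -1.72 to -0.55 (adjusted p = 0.0529). Hcar2, Tff3 and Crybb3 went from -4.24, -3.57 and -2.79 to -1.91, -1.77 and -1.29 (adjusted p = 0.0897, 0.17 and 0.15). The 3 neutrophil markers tested summed to 31.3 and 33.2 CPM in those 2 libraries and to 2.48 to 3.82 CPM in the other 8. Of the markers too low to test, Ly6g, Mpo, Elane, Camp and Ngp had at most 8 counts in any of the 10. Cxcr2 and Retnlg, also untested, ranged from 1 to 55 and from 2 to 57 counts. The part of neutrophils was not tested. In the 10 fits without 1 library each, the call held in all 10 fits for Crybb3. The rest passed in fewer (highest adjusted p in brackets): Lcn2 3 of 10 (0.12, without IF16 replicate 3), S100a8 3 of 10 (0.12, without IF16 replicate 3), Hcar2 8 of 10 (0.0567, without IF16 replicate 5), Tff3 7 of 10 (0.0684, without IF16 replicate 3), Bcl3 3 of 10 (0.0991, without IF16 replicate 3). Over 26 acute phase genes the median changed sign, from -0.74 to 0.26. Of the 484 genes, 35 became at least 1.5 times smaller on the log2 scale, 28 of them genes that fell.

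Without those libraries 126 genes passed that had not passed before, 42 higher and 84 lower, of which 7 had not been tested. The smallest p among the tested ones belonged to Clstn3, Mogat1, Lgals1, Col1a1, Fitm1 and Crybg3. Mogat1, an acyltransferase of triglyceride synthesis, read 7.38, 6.46, 3.59, 1.04 and 1.01 CPM in AL and 0.961, 1.37, 1.31, 1.81 and 0.756 CPM in IF16, and its log2 fold change went from -1.65 (adjusted p = 0.0699) to -2.22 (adjusted p = 0.000644). AL replicates 4 and 5 lay within the IF16 range in Mogat1. Clstn3, Lgals1, Col1a1 and Fitm1 went from -1.15, -1.09, -0.75 and -0.70 to -1.59, -1.48, -1.16 and -1.04, and Crybg3 from 0.59 to 0.99.

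**Figure D4:**
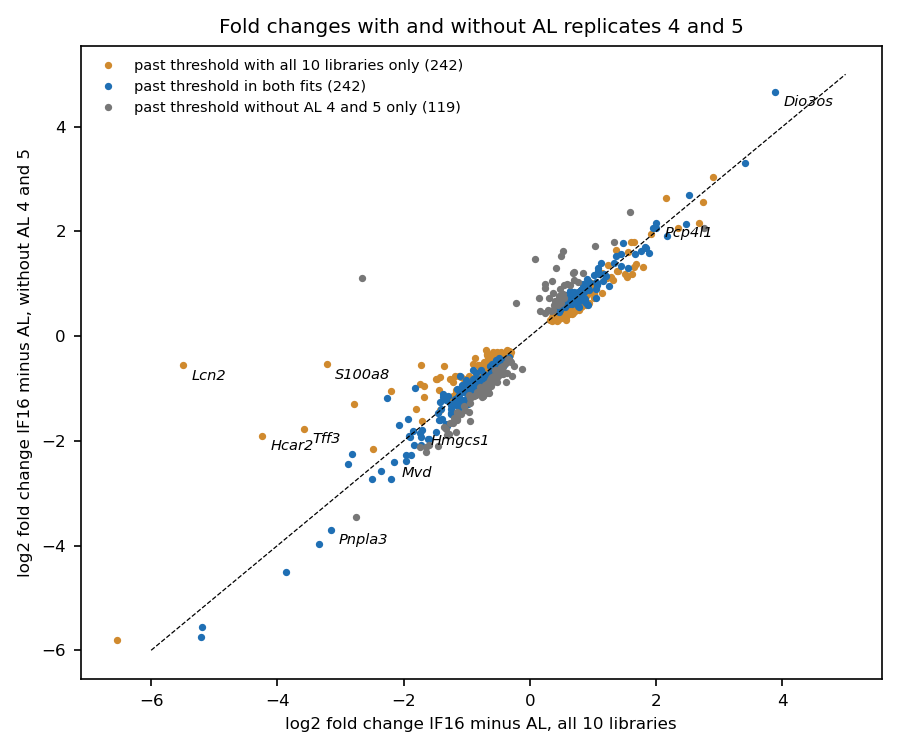
Log2 fold change of IF16 minus AL with all 10 libraries (horizontal axis) and without AL replicates 4 and 5 (vertical axis), 1 point per gene past the threshold in either fit. The 7 genes that passed without those libraries but were not tested with them are not drawn. The dashed line marks equal values. The 242 genes that passed in both fits follow the line more closely than Lcn2, S100a8, Hcar2 and Tff3, which lie above it.

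**Figure D5:**
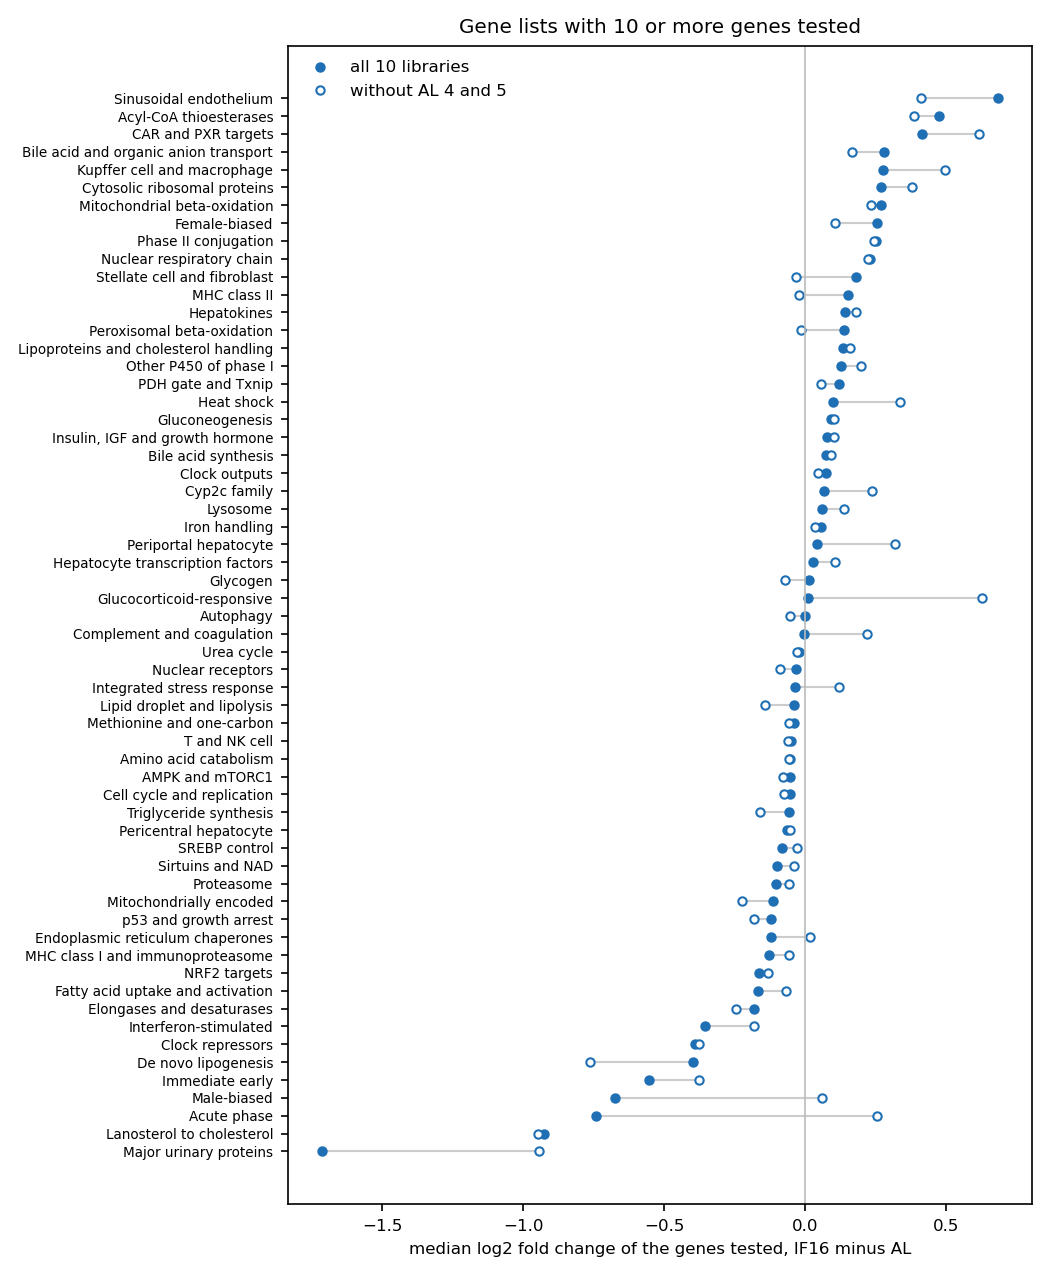
Median log2 fold change of IF16 minus AL (horizontal axis) of each gene list with 10 or more genes tested, with all 10 libraries (filled) and without AL replicates 4 and 5 (open). The acute phase list moves from -0.74 to 0.26, and the lanosterol list stays at -0.93 and -0.95.

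Among the non-coding genes Gm10804, RP24-458J4.2 and Dio3os rose and D630024D03Rik fell. Dio3os, the antisense transcript of the deiodinase gene Dio3, read 0.0859, 0.276, 0.131, 0.415 and 0.506 CPM in AL, where 3 counts are 0.0859 to 0.104 CPM, and 1.02, 2.84, 3.98, 8.11 and 4.7 CPM in IF16 (log2 fold change 3.88, SE 0.61, adjusted p = 0.00307). Its groups did not overlap, and IF16 replicate 4 was the highest. No source used here says how strand entered the counting, so overlapping and antisense genes may share reads. Gm10804 and RP24-458J4.2 rose by 2.51 and 0.91 and D630024D03Rik fell by 1.92 on the log2 scale, and all 4 passed without AL replicates 4 and 5.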

How the data were processed

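Liver mRNA of 15 libraries was sequenced; the labels name poly-T beads and a NEBNext Ultra kit. The authors deposited raw counts as whole numbers for each Ensembl gene, and the submitters' processing notes list STAR 2.5, HTSeq 0.6.1, DESeq2 and mm10, with no roles. The authors also deposited FPKM values, used here only to set levels beside each other per gene length. The 35275 genes of the table include 12666 with no count in any library, and filterByExpr (minimum count 10) left 13837. In edgeR 4.0.16 under R 4.3.3, libraries were TMM-scaled, all 15 entered 1 quasi-likelihood fit with a mean per group, and IF16 was set against AL. Unless another test is named, an adjusted p is edgeR's, by the Benjamini-Hochberg method over all genes tested. To give an SE, the absolute log2 fold change was divided by the root of its F value. The common biological coefficient of variation was 0.211. The script was tested on simulated counts with known folds.

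The members and the 73 gene and marker lists were chosen with earlier results of these data known. Named genes were the 10 increases and 10 decreases with the smallest p among protein-coding genes of at least 1 CPM with all 5 IF16 libraries on 1 side of the AL mean, up to 3 per list, sterol and clock members, 6 genes that moved most and 6 gained without AL replicates 4 and 5, and 4 non-coding genes. The chi-square over genes of 2 libraries of 1 group, per degree of freedom, was 24.9 to 219 (20 pairs), so none was counted as 1 library sequenced again. It cannot tell whether 2 libraries came from 1 mouse. Alternatives were DESeq2 1.42.0 size factors and its Wald test, other filters, the 2 groups alone, a replicate block, each library left out, and AL replicates 4 and 5 left out with or without EOD. A few genes are not reported here and were left out of the lists and their counts. The 3-count floor covers counting error only.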

Additional observations from a re-analysis of the deposited data

Results flagged for a closer look

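Of 356 groups of 5 libraries, AL or IF16, of the 178 tested genes named in the text, 18 held a highest or lowest library whose gap to the next exceeded Dixon's 95% critical value of 0.71 times the group's range; chance flags about 1 in 20 groups. Sc5d was lowest in IF16 replicate 4 at 182 CPM, against 284 to 316 CPM in the other 4. In AL replicate 4, Stard4 read 136 CPM, and 92.3 to 101 CPM in the rest of the group. For Pnpla3, AL replicate 2 was highest at 22.6 CPM beside 1.7 to 7.1 CPM elsewhere. Gm6484 was highest in AL replicate 1 at 359 CPM, against 72.4 to 135 CPM in the other 4. In IF16 replicate 1, Txnip read 212 CPM, and 69.5 to 105 CPM in the rest of the group. For Per2, IF16 replicate 5 was highest at 62.6 CPM beside 33.5 to 39.5 CPM elsewhere. Per3 was highest in AL replicate 2 at 53.1 CPM, against 22.8 to 28.3 CPM in the other 4. In AL replicate 3, Cyp2c37 read 437 CPM, and 255 to 288 CPM in the rest of the group. For Tomm40l, IF16 replicate 4 was highest at 13.5 CPM beside 9.24 to 10.5 CPM elsewhere. Parp3 was lowest in AL replicate 3 at 23.3 CPM, against 30.3 to 33 CPM in the other 4. In AL replicate 2, Nat8 read 31.6 CPM, and 40.9 to 44.4 CPM in the rest of the group. For Crybg3, AL replicate 4 was highest at 9.33 CPM beside 2.97 to 4.12 CPM elsewhere. Gm10804 was highest in IF16 replicate 3 at 3.19 CPM, against 1.68 to 1.98 CPM in the other 4. In AL replicate 5, Psmc5 read 123 CPM, and 111 to 114 CPM in the rest of the group. For Psmd14, AL replicate 2 was lowest at 31.3 CPM beside 47.9 to 53.4 CPM elsewhere. Tmem97 was lowest in AL replicate 2 at 90.9 CPM, against 106 to 111 CPM in the other 4. In AL replicate 2, Tef read 195 CPM, and 147 to 158 CPM in the rest of the group. For Tspan4, IF16 replicate 4 was lowest at 21.5 CPM beside 41.2 to 46.6 CPM elsewhere.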

How the results depend on the processing

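With each library left out in turn, the count of genes past the threshold ran from 241 (without IF16 replicate 3) to 578 (without IF16 replicate 1), against 484; it was 269 without IF16 replicate 2 and 254 without IF16 replicate 5. Genes higher in IF16 ran from 94 to 251 and genes lower from 141 to 327. In all 10 of these fits 206 of the 484 genes passed, 83 higher and 123 lower, and 161 of them also passed without AL replicates 4 and 5. Leaving out those 2 libraries gave 122 higher genes, and 275 of the 484 passed with EOD left out as well. The DESeq2 Wald test called 937 genes, 371 higher and 566 lower. Other settings kept these counts within 1.5 times: DESeq2 size factors gave 485, no filter 407 and the 2 groups alone 483. Of 178 named genes, 127 passed in the main setting; 126 did with DESeq2 size factors, 101 with no filter and 106 with the 2 groups alone. The labels give both groups replicates 1 to 5 and do not say whether the number pairs libraries. Same-numbered libraries showed no clear shared deviation (correlations of -0.13 to 0.22 over 5 pairs, and 1 AL library correlated best with its own number). So few pairs cannot exclude a pairing, and the number was left out of the main fit. With the replicate block 492 genes passed, 214 higher and 278 lower, and 108 of the 127 named genes. No fit reversed a named gene that passed. Depth of 28129883 to 38147534 counts puts 3 counts at 0.078 to 0.107 CPM, so low genes such as Hcar2 and Tff3 rest on few reads.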
